A study of Homo sapiens with 4 samples.

Results

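The integrated stress response and the serine synthesis genes it controls were followed across 4 RNA-seq libraries of HUES8, an established human embryonic stem cell line. The members were 33 genes fixed by name, and all 33 had a row in the table of 59050 genes. After low counts were filtered out, 31 of the 33 remained among 17564 tested genes, and NUPR1 and FGF21 did not. There were 2 libraries labelled with the genotype WT and 2 labelled CPT2 KO, the latter meant to lack CPT2, a mitochondrial enzyme of long-chain fatty acid oxidation. In both groups the cells were kept undifferentiated in mTeSR1 medium on Matrigel, the labels give the treatment as WT, and total RNA was taken. How the knockout was made, or whether it is 1 clone, is not given in the sources used here. The labels do not say whether the 2 replicates of a group were grown separately. The p-values therefore speak only of the variation among these libraries, and this may be technical.

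In the integrated stress response, a kinase senses a stress and phosphorylates the alpha subunit of the translation factor eIF2. General translation then slows while the mRNA of the transcription factor ATF4 is translated more. ATF4 and its partners induce genes that import amino acids, build asparagine and serine, and shut the response off again. Serine made by PHGDH, PSAT1 and PSPH supplies the mitochondrial folate enzymes SHMT2, MTHFD2 and ALDH1L2. Because ATF4 is set largely at translation, its transcript is only part of the pathway's state, and neither eIF2 phosphorylation nor ATF4 protein was analysed here.

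The libraries held between 16887789 and 20460031 counts. CPT2 itself ran against the labels, at 2.82 and 3.49 CPM (counts relative to the scaled library total) in the WT-labelled libraries and at 11.5 and 10.2 CPM in the CPT2 KO-labelled pair. Libraries are therefore named below only as labelled, WT 1, WT 2, CPT2 KO 1 and CPT2 KO 2, and every fold change is the CPT2 KO-labelled libraries over the WT-labelled pair. WT 1 stood apart: 12 hypoxia genes summed to 4564 CPM in it against 1674 to 1927 CPM in the other 3 libraries. SLC2A3 was the largest part, at 2526 and 1268 CPM in the WT-labelled libraries and 1215 and 1245 CPM in the CPT2 KO-labelled pair. BNIP3, at 593 and 116 CPM against 199 and 107 CPM, was higher in replicate 1 than in replicate 2 of both groups. So were VEGFA, NDRG1, ANKRD37, KDM3A, PDK1, SLC2A1 and P4HA1, but not CA9, ADM, EGLN3 or SLC2A3. Mitochondrially encoded genes took 4.15% of the counts of WT 1 against 7.21% to 7.84%. Stem cell identity markers were present in all libraries, with 8 genes summing to between 7382 and 8745 CPM. A sum over 12 mesendoderm markers was 12.2 and 14.9 CPM in the WT-labelled libraries and 353 and 121 CPM in the CPT2 KO-labelled pair, and a sum over 8 fibroblast markers was 440 to 508 CPM in all, mostly COL1A1, COL1A2 and THY1, while COL3A1, DCN and LUM were each at 0 counts in 2 or more libraries. Of 6 neural markers, SOX1 and SIX6 were called lower (log2 fold change -3.30 and -4.72, edgeR adjusted p = 0.0164 and 0.0382). The sum over the 6 was 327 and 326 CPM against 430 and 359 CPM, but it was mostly NES, at 277 and 295 CPM against 398 and 337 CPM. Of the rest, SOX3 lay lower (log2 fold change -1.39, edgeR adjusted p = 0.107). OTX2 and PAX6 lay higher (1.25 and 1.01, edgeR adjusted p = 0.626 and 0.664). The part of mesendoderm or neural cells in the values below was not tested. In bulk RNA, fewer cells of a type and less RNA per cell cannot be told apart.

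Several members share a short element in their promoters. The C/EBP-ATF composite element, to which ATF4 binds together with C/EBP proteins, was searched as TGATGNAA on both strands in RefSeq windows (GRCh38.p14) from 250 bases before to 50 bases after each start site. Of the 33 members, 26 had a window. The element was in 8 of their 38 windows (21.1%), 1 window for each of 8 members, against 3.62% of all 35116 windows. Some members are known stress response genes because of this element, so the share is a description. The 5 tested members with the element ahead of the RefSeq start site of its window are shown, since their values below differ in size and direction. Each run is 30 bases, read 5′ to 3′ along the element, which is in capitals.
ASNS: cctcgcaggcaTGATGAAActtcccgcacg
CHAC1: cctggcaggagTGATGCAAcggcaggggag
CEBPG: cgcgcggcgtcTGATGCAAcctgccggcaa
PPP1R15B: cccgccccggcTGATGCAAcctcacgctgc
ATF3: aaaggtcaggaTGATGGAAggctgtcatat
The ASNS run lies at chr7:97872458-97872487 and its element starts 68 bases before the RefSeq start site used for this minus-strand gene. The CHAC1 run lies at chr15:40953251-40953280 and is read against the direction of the gene, which is on the plus strand. The CEBPG run at chr19:33374060-33374089, the PPP1R15B run at chr1:204412026-204412055 and the ATF3 run at chr1:212565205-212565234 are read along their genes, on the plus, minus and plus strands. By the gene bounds of GENCODE 29, the ASNS, CHAC1 and CEBPG runs lie inside the gene, and the PPP1R15B and ATF3 runs lie ahead of it. The other matches were in FGF21, SLC3A2 and SLC7A1, the latter pair after the RefSeq start site.

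No member was called different between the groups. The quasi-likelihood test of edgeR, adjusted over all 17564 tested genes at 0.05, called 0 of 31 members higher and 0 lower, where it called 0.359% of all tested genes higher and 0.0569% lower. DESeq2 and limma-voom also called 0 members, where they called 1.11% and 0.353% of all tested genes in either direction. At an unadjusted p under 0.05 there were 0 members, against 9.04% of all tested genes, and the lowest adjusted p was 0.570, for ASNS. Of the log2 fold changes 14 were above 0 and 17 below, with a median of -0.013 beside 0.0017 over all tested genes. The 95% interval of the fold change lay inside a 2-fold change either way for 26 of 31 members, and inside a 1.5-fold change for 13. Such an interval reflects only the variation among these libraries, which may be technical. The intervals of ATF5, DDIT3, VLDLR, GDF15 and ASNS were wider than that 2-fold bound on at least 1 side.

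**Figure D1:**
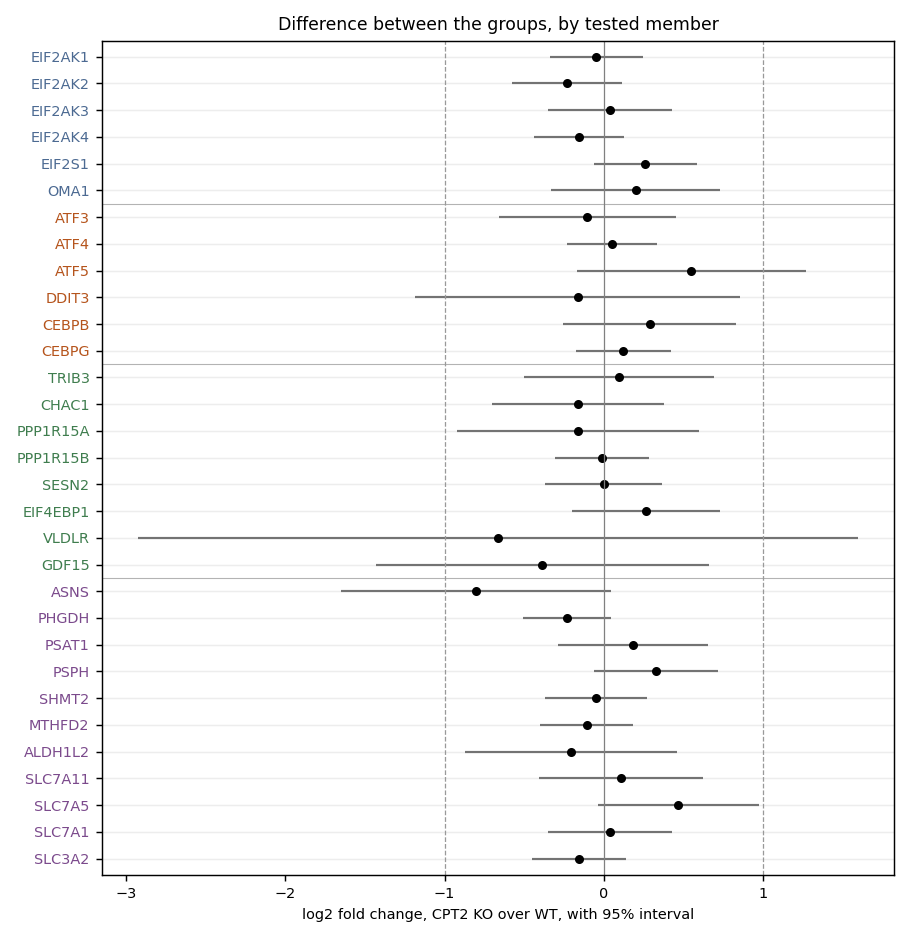
Log2 fold change of the CPT2 KO-labelled libraries over the WT-labelled pair (x axis) for the 31 tested members, with points for estimates and bars for 95% intervals from edgeR. Members are grouped from top to bottom as kinases with eIF2 alpha and OMA1, transcription factors, feedback and secreted targets, and amino acid genes, the dashed lines mark a 2-fold change, and every bar crosses 0.

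All 4 eIF2 kinases were transcribed in these stem cells. Per kilobase of gene length, EIF2AK1 (the heme and mitochondrial stress kinase HRI) stood highest at a mean of 35.4 CPM per kb. EIF2AK4 (GCN2, which senses uncharged tRNA) followed at 16.4, EIF2AK2 (PKR, which senses double-stranded RNA) at 9.61 and EIF2AK3 (PERK, the endoplasmic reticulum kinase) at 5.51 CPM per kb. The ranges of these kinases over the libraries did not overlap, from 33.9 to 37.6 for EIF2AK1, 15.2 to 17.5 for EIF2AK4, 8.47 to 11.7 for EIF2AK2 and 4.97 to 5.98 CPM per kb for EIF2AK3. Gene lengths are those in the table and cover all annotated exons, so a gene with long, rarely used exons appears lower than it is.

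The kinases differed little between the groups. EIF2AK1 had a log2 fold change of -0.048 (95% interval -0.34 to 0.24) and EIF2AK3 of 0.040 (-0.35 to 0.43). EIF2AK4 stood at 210 and 205 CPM in the WT-labelled libraries and at 190 and 182 CPM in the CPT2 KO-labelled pair. Its groups did not overlap, but the difference was small (log2 fold change -0.16, SE 0.13, edgeR adjusted p = 0.733). EIF2AK2 had the largest negative value of the group, -0.23 (SE 0.16, edgeR adjusted p = 0.676), at 97.3 and 126 CPM against 91.1 and 99.1 CPM. Here WT 2 was above the other 3 libraries, and WT 1 lay between the CPT2 KO-labelled libraries. The value was -0.035 without WT 2 and -0.41 without WT 1.

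EIF2S1, the alpha subunit that the kinases phosphorylate, stood at 92.8 and 114 CPM in WT 1 and WT 2 and at 119 and 128 CPM in CPT2 KO 1 and CPT2 KO 2. The groups did not overlap, and WT 1 was the low library (log2 fold change 0.26, SE 0.15, edgeR adjusted p = 0.624). Without WT 1 the value was 0.12, and without WT 2 it was 0.41. Exons of EIF2S1 (chromosome 14, 67359997 to 67386516, plus strand, GRCh38) overlap ATP6V1D on the opposite strand, and without stated strand use the reads of the 2 genes cannot be fully told apart. OMA1, the inner membrane protease that relays mitochondrial stress to EIF2AK1, was at 12.8 CPM in WT 1 against 21.1, 19.6 and 19.5 CPM in the other libraries. The low value was that of WT 1 alone, and the fold change turned from 0.20 to -0.11 without it. OMA1 shares exon positions with DAB1 on the same strand, which had 409 to 1043 counts, so the assignment of its reads is uncertain.

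ATF4 was among the most abundant transcripts and hardly varied. It stood at 442 and 449 CPM in the WT-labelled libraries and at 448 and 475 CPM in the CPT2 KO-labelled pair, a ratio of 1.07 between the highest and the lowest library. The group means were 445 ± 4.85 and 461 ± 18.5 CPM (SD, n = 2 each). The fold change was 1.04 with a 95% interval from 0.853 to 1.26 (edgeR adjusted p = 0.928), and on the log2 scale it stayed between 0.013 and 0.092 with each library left out. Per kilobase ATF4 was at 180 CPM, above 99.2% of tested genes. The gene lies on chromosome 22 at 39519695 to 39522685 (plus strand) with no exon overlap, and its pseudogenes ATF4P1 to ATF4P4 had at most 26 counts, 0.287% of the ATF4 count of the same library.

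The stress-induced partners of ATF4 were far lower. DDIT3 (CHOP, a factor of prolonged stress) had 32 and 26 counts in the WT-labelled libraries and 31 and 18 in the CPT2 KO-labelled pair, or 1.73, 1.26, 1.53 and 1.08 CPM. The groups overlapped (log2 fold change -0.16, 95% interval -1.19 to 0.86), and at this depth a 2-fold lower level lay inside the interval. Per kilobase, the level of ATF4 was 132 to 227 times that of DDIT3 within a library. DDIT3 overlaps MARS and MBD6 on the opposite strand, both with more counts than DDIT3 in every library. NUPR1, a stress-induced chromatin protein, had 2 and 4 counts against 1 and 8, too few for a test.

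ATF5, which drives mitochondrial protective genes, had the largest positive value among the transcription factors. It was at 4.23 and 5.10 CPM in the WT-labelled libraries and at 5.10 and 8.74 CPM in the CPT2 KO-labelled pair. CPT2 KO 2 was the high library and CPT2 KO 1 was level with WT 2, so that the log2 fold change of 0.55 (SE 0.32, edgeR adjusted p = 0.638) was 0.13 without CPT2 KO 2 and 0.90 without CPT2 KO 1. ATF5 exons overlap NUP62 and IL4I1 on the opposite strand, with 1241 to 1749 and 3 to 14 counts.

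ATF3, an early factor of several stress responses, stood at 25.7 CPM in WT 1 and 14.8 CPM in WT 2, with 19.3 and 18.2 CPM in the CPT2 KO-labelled libraries between them. The 2 WT-labelled libraries thus held both extremes, 1.74-fold apart, and the fold change turned from -0.10 to 0.35 without WT 1. CEBPB, a partner of ATF4 in induced genes, was lowest in WT 2 (8.20 CPM) with the other libraries at 11.9 to 12.8 CPM (log2 fold change 0.29, edgeR adjusted p = 0.742), and its value was 0.030 without WT 2 and 0.59 without WT 1. CEBPG, the usual dimer partner of ATF4 on amino acid genes, varied little, from 78.9 to 89.2 CPM, and both CPT2 KO-labelled libraries were above both WT-labelled ones (log2 fold change 0.12, edgeR adjusted p = 0.804).

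**Figure D2:**
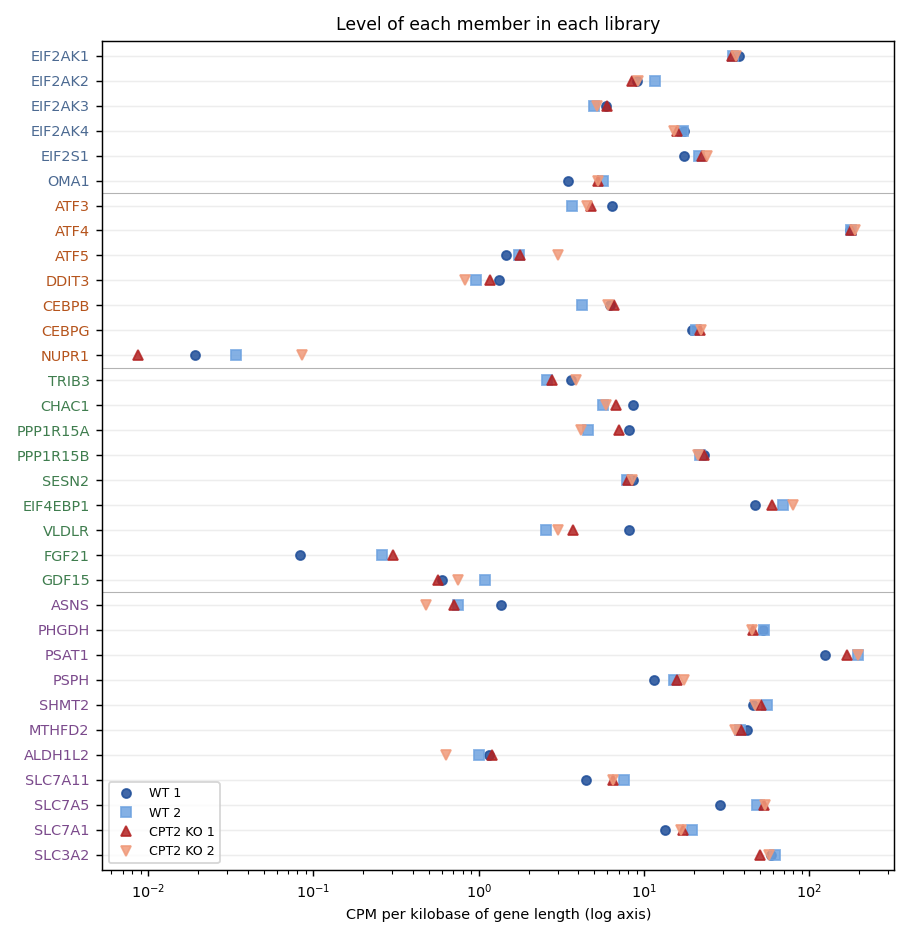
Level of each of the 33 members in each library in CPM per kilobase of gene length (log x axis), with blue symbols for the WT-labelled libraries and red ones for the CPT2 KO-labelled pair. ATF4 and PSAT1 stand highest, at means of 180 and 172 CPM per kb, NUPR1 and FGF21 lowest, and FGF21 has no point for CPT2 KO 2, where it had 0 counts.

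The feedback genes gave no shared direction. PPP1R15A (GADD34, the stress-induced phosphatase subunit that dephosphorylates eIF2) was at 24.8 and 14.1 CPM in WT 1 and WT 2 and at 21.7 and 12.7 CPM in CPT2 KO 1 and CPT2 KO 2. It was the 1 member of the 31 over 1.5-fold higher in replicate 1 than in replicate 2 of both groups. PPP1R15B (CReP), its constant counterpart, stayed between 112 and 122 CPM (log2 fold change -0.013, 95% interval -0.31 to 0.28). Per kilobase PPP1R15B was 2.86 to 5.13 times as high as PPP1R15A in the same library.

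TRIB3, a pseudokinase that restrains ATF4, was at 10.9 and 7.86 CPM against 8.36 and 11.8 CPM, with the lowest value in WT 2 and the highest in CPT2 KO 2. CHAC1, which degrades glutathione and is among the sharpest markers of ATF4 activity, stood at 17.7 CPM in WT 1 and at 11.6, 13.9 and 12.1 CPM in the others. WT 1 was the high library, and the log2 fold change of -0.16 was 0.17 without it. SESN2, an inhibitor of mTORC1 signalling, was level at 27.3 to 29.8 CPM (log2 fold change -0.0029, 95% interval -0.37 to 0.36).

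EIF4EBP1, which blocks cap-dependent translation when mTORC1 is low, was the abundant member of the group at 63.6 CPM per kb. It stood at 41.1 and 60.5 CPM in the WT-labelled libraries and at 52.4 and 69.9 CPM in the CPT2 KO-labelled pair. Replicate 1 was below replicate 2 in both groups, and the groups overlapped (log2 fold change 0.27, SE 0.21, edgeR adjusted p = 0.720). Its log2 fold change was 0.57 without WT 2 (edgeR adjusted p = 0.0623), 0.013 without WT 1 and 0.049 without CPT2 KO 2.

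VLDLR, a lipoprotein receptor induced by ATF4 under stress, showed the widest gap of the tested members. It was at 76.4 CPM in WT 1 and at 24.0, 34.7 and 28.4 CPM in WT 2, CPT2 KO 1 and CPT2 KO 2. WT 1 was 3.18-fold above WT 2, and WT 2 was the lowest of all. The log2 fold change was -0.66 (edgeR adjusted p = 0.818), with a 95% interval from 0.132-fold to 3.03-fold. It was 0.40 without WT 1, and -1.27 without WT 2 (edgeR adjusted p = 1.07e-06). VLDLR lies on chromosome 9 at 2621834 to 2660053 (plus strand) and overlaps VLDLR-AS1, which had 121 and 70 counts against 58 and 37. The sum of the hypoxia genes was also highest in WT 1, and its part in the VLDLR value was not tested.

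The secreted hormones of the response were scarce. GDF15, a circulating signal of mitochondrial stress, had 23 and 47 counts in the WT-labelled libraries and 24 and 26 in the CPT2 KO-labelled pair. WT 2 was the high library (log2 fold change -0.39, 95% interval -1.43 to 0.66). FGF21, the other such hormone, had 2, 7, 8 and 0 counts in WT 1, WT 2, CPT2 KO 1 and CPT2 KO 2. The 0 allows up to 3 counts, or 0.181 CPM. FGF21 was not tested, and its highest and lowest values were both in the CPT2 KO-labelled pair.

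PHGDH, the first enzyme of serine synthesis, had close replicates in both groups. It stood at 484 and 491 CPM in the WT-labelled libraries and at 418 and 412 CPM in the CPT2 KO-labelled pair, or 487 ± 4.60 and 415 ± 3.73 CPM (SD, n = 2 each). The groups did not overlap, and the log2 fold change was -0.23 (SE 0.13, 95% interval -0.51 to 0.047). It did not pass the test (edgeR adjusted p = 0.614), whose spread is shared over genes and is wider than that of these 2 pairs. With each library left out in turn the value stayed between -0.24 and -0.22. PHGDH lies on chromosome 1 at 119648411 to 119744226 (plus strand) with no exon overlap.

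PSAT1 and PSPH, which carry out the next steps to serine, lay the other way. PSAT1 was at 276 and 436 CPM in WT 1 and WT 2 and at 373 and 435 CPM in CPT2 KO 1 and CPT2 KO 2. WT 1 was low and WT 2 highest, so the groups overlapped (log2 fold change 0.18, SE 0.21, edgeR adjusted p = 0.813). Without WT 2 it was 0.55 (edgeR adjusted p = 0.0315) and without WT 1 it was -0.11. PSPH was at 31.7 and 41.7 CPM against 43.9 and 48.2 CPM, with both CPT2 KO-labelled libraries above both WT-labelled ones (log2 fold change 0.32, SE 0.18, edgeR adjusted p = 0.614). It was 0.14 without WT 1 and 0.54 without WT 2.

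Within a library the transcripts of the serine enzymes differed in level per kilobase, a measure that rests on the deposited gene lengths. The level of PSAT1 per kilobase was 2.38 and 3.72 times that of PHGDH in WT 1 and WT 2, and 3.73 and 4.41 times in CPT2 KO 1 and CPT2 KO 2. The lengths are 2206 bases for PSAT1 and 9217 for PHGDH. In CPM, not divided by length, PHGDH was above PSAT1 in WT 1, WT 2 and CPT2 KO 1, and below it in CPT2 KO 2. For PSPH the ratio to PHGDH was 0.219 and 0.284 against 0.350 and 0.390. Both ratios were lowest in WT 1 and highest in CPT2 KO 2, and neither overlapped between the groups, though for PSAT1 WT 2 and CPT2 KO 1 were nearly equal. With 2 libraries a group such ratios were not tested. PSAT1 lies on chromosome 9 at 78297143 to 78330093 (plus strand), and its 4 listed pseudogenes had at most 2 counts, as PSPHP1 had 0.

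Of the mitochondrial folate enzymes, SHMT2 and MTHFD2 varied little and ALDH1L2 varied more. SHMT2, which splits serine to load folate, ranged from 209 to 255 CPM (log2 fold change -0.049, 95% interval -0.37 to 0.27), and MTHFD2, which oxidises the loaded folate, from 172 to 201 CPM (-0.11, -0.40 to 0.18). ALDH1L2, which releases the carbon with NADPH formation, was the low one, above 26.9% of tested genes per kilobase. It stood at 10.9 and 9.56 CPM in the WT-labelled libraries and at 11.5 and 6.03 CPM in the CPT2 KO-labelled pair. CPT2 KO 2 was the low library, and without it the log2 fold change of -0.21 became 0.17. Exons of ALDH1L2 overlap C12orf45 on the opposite strand, which had more counts than ALDH1L2 in every library.

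ASNS, which makes asparagine and carries the element shown first above, had the largest negative fold change of all members at a low level. It had 123 and 76 counts in WT 1 and WT 2 and 70 and 39 in CPT2 KO 1 and CPT2 KO 2, or 6.67, 3.69, 3.46 and 2.35 CPM. The groups did not overlap, but WT 2 and CPT2 KO 1 were close and WT 1 was the high library. The log2 fold change was -0.80 (SE 0.38, 95% interval -1.65 to 0.043, edgeR adjusted p = 0.570), -0.32 without WT 1 and -1.18 without WT 2 (edgeR adjusted p = 0.0551). At 0.826 CPM per kb ASNS was above 23.9% of tested genes, while SHMT2, PHGDH, SLC7A5 and SLC3A2 were each above more than 95% of them. ASNS (chromosome 7, 97852118 to 97872542, minus strand) shares exon positions with AC079781.5 on the same strand, which had 4 to 12 counts. The assignment of its reads, and so its low level, is therefore uncertain, as for OMA1.

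The amino acid transporters, apart from SLC3A2, were lowest in WT 1. SLC7A5 (LAT1, which imports leucine and other large neutral amino acids) stood at 137 CPM in WT 1, 231 CPM in WT 2, and 252 and 256 CPM in the CPT2 KO-labelled libraries. Both CPT2 KO-labelled libraries were above both WT-labelled ones, and most of the spread lay in WT 1 (log2 fold change 0.47, SE 0.22, edgeR adjusted p = 0.583). Without WT 1 it was 0.14, and without WT 2 it was 0.89 (edgeR adjusted p = 0.000212). SLC7A5 is on chromosome 16 at 87830023 to 87869488 (minus strand), and AC126696.2, which overlaps it on the opposite strand, had at most 1 count.

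SLC7A11 (xCT, which imports cystine) was at 42.9 CPM in WT 1 and at 73.2, 62.8 and 62.5 CPM in the others, and SLC7A1 (CAT1, which imports arginine and lysine) at 103 CPM against 150, 133 and 128 CPM. In both genes WT 2 was the highest library, and the log2 fold changes of 0.11 and 0.039 turned to -0.23 and -0.21 without WT 1. SLC3A2 (4F2hc), the chain that SLC7A5 and SLC7A11 need to reach the membrane, did not share the low value of WT 1. It stood at 302 and 319 CPM in the WT-labelled libraries and at 262 and 295 CPM in the CPT2 KO-labelled pair, so that the groups did not overlap (log2 fold change -0.16, edgeR adjusted p = 0.740). Per kilobase, the ratio of SLC7A5 to SLC3A2 was 0.495 in WT 1 and 0.786 in WT 2, against 1.05 and 0.943 in CPT2 KO 1 and CPT2 KO 2.

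**Figure D3:**
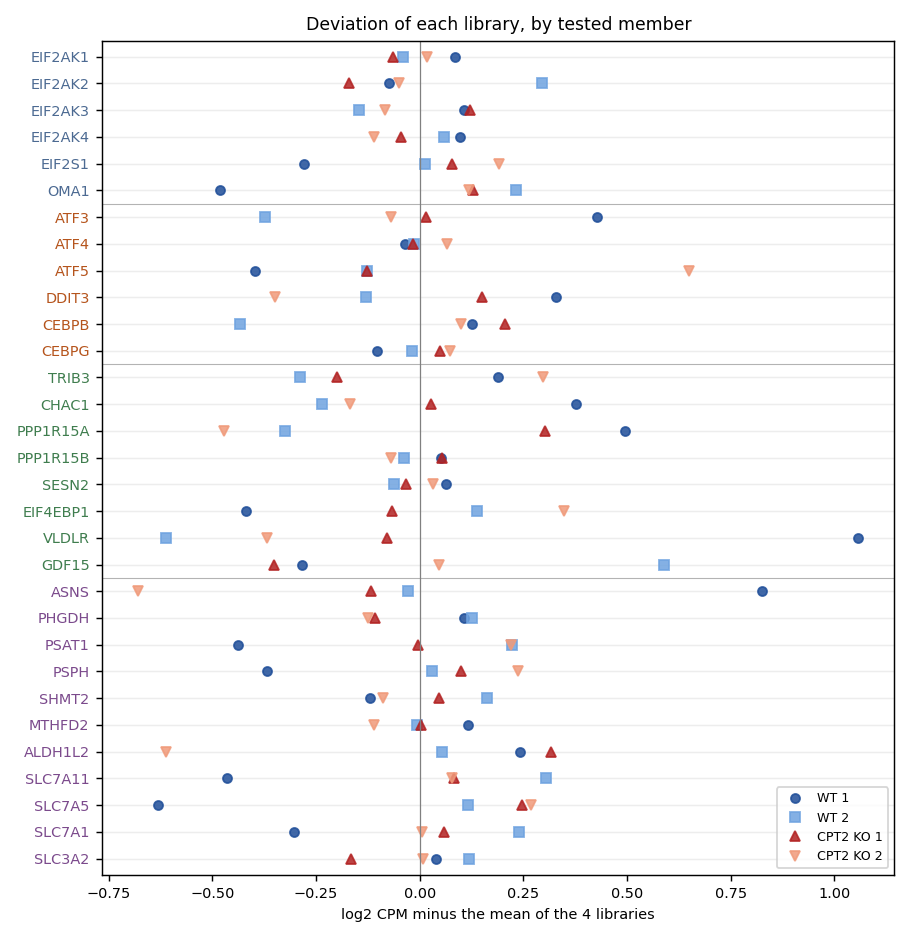
Log2 CPM of each library minus the mean of the 4 libraries (x axis) for the 31 tested members, with blue symbols for the WT-labelled libraries and red ones for the CPT2 KO-labelled pair. WT 1 (dark blue circles) lies to the right for VLDLR, ASNS, PPP1R15A and ATF3 and to the left for SLC7A5, OMA1, SLC7A11 and PSAT1.

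Libraries of the same group also differed from each other. WT 1 was the highest library for 10 of 31 members and the lowest for 12, beside 31.8% and 32.5% of all tested genes. It was highest in EIF2AK1, EIF2AK4, ATF3, DDIT3, CHAC1, PPP1R15A, SESN2, VLDLR, ASNS and MTHFD2. It was lowest in EIF2S1, OMA1, ATF4, ATF5, CEBPG, EIF4EBP1, PSAT1, PSPH, SHMT2, SLC7A11, SLC7A5 and SLC7A1. WT 1 and WT 2 differed by over 1.5-fold in 10 members, against 21.2% of all tested genes, and CPT2 KO 1 and CPT2 KO 2 in 3, namely ATF5, PPP1R15A and ALDH1L2, against 17.6%. The median absolute log2 ratio over the members was 0.40 within the WT-labelled pair and 0.12 within the CPT2 KO-labelled pair, beside 0.26 and 0.22 over all tested genes. The median absolute log2 fold change between the groups was 0.16 over the members and 0.21 over all tested genes.

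Non-overlap of the groups was no more common among the members than elsewhere. Both CPT2 KO-labelled libraries were above both WT-labelled ones for 5 members, EIF2S1, ATF5, CEBPG, PSPH and SLC7A5, where 21.1% of all tested genes showed this. They were below for 4, EIF2AK4, ASNS, PHGDH and SLC3A2, where 19.8% of all tested genes did. ATF5 was apart only narrowly, with CPT2 KO 1 and WT 2 both at 5.10 CPM. The numbers above and below were 6 and 4 with upper-quartile scaling or the stricter filter. They were 4 and 6 by library size only, and 4 and 4 with no filter on low counts. By role, 3 of the 6 kinase and eIF2 genes, 4 of 6 transcription factors, 2 of 8 feedback genes and 5 of 11 amino acid genes had a positive log2 fold change. The medians of the 4 role groups were -0.0040, 0.087, -0.088 and -0.049.

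Leaving out a library showed which values rested on it. With WT 2 left out, edgeR called PSAT1 and SLC7A5 higher and VLDLR lower, where 3.02% of all tested genes were called higher and 3.84% lower, and WT 1 was then the only WT-labelled library. With WT 1, CPT2 KO 1 or CPT2 KO 2 left out 0 members were called, where 0.848%, 0.188% and 0.473% of all tested genes were called in either direction. Without WT 1, 12 of the 31 log2 fold changes changed sign, against 4, 2 and 6 without WT 2, CPT2 KO 1 and CPT2 KO 2. In all 14 alternatives 14 members kept their sign, among them ATF4, CEBPG, PHGDH, PSPH, SLC7A5 and ASNS, though with a library left out MTHFD2 ranged from -0.17 to -0.045, SLC3A2 from -0.24 to -0.072 and CEBPG from 0.080 to 0.17. The tested members with the promoter element did not share a direction: the log2 fold change was negative for ASNS, ATF3, CHAC1, PPP1R15B and SLC3A2, though ATF3, CHAC1 and PPP1R15B turned positive without WT 1, and positive for CEBPG and SLC7A1, the latter negative without WT 1.

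**Figure D4:**
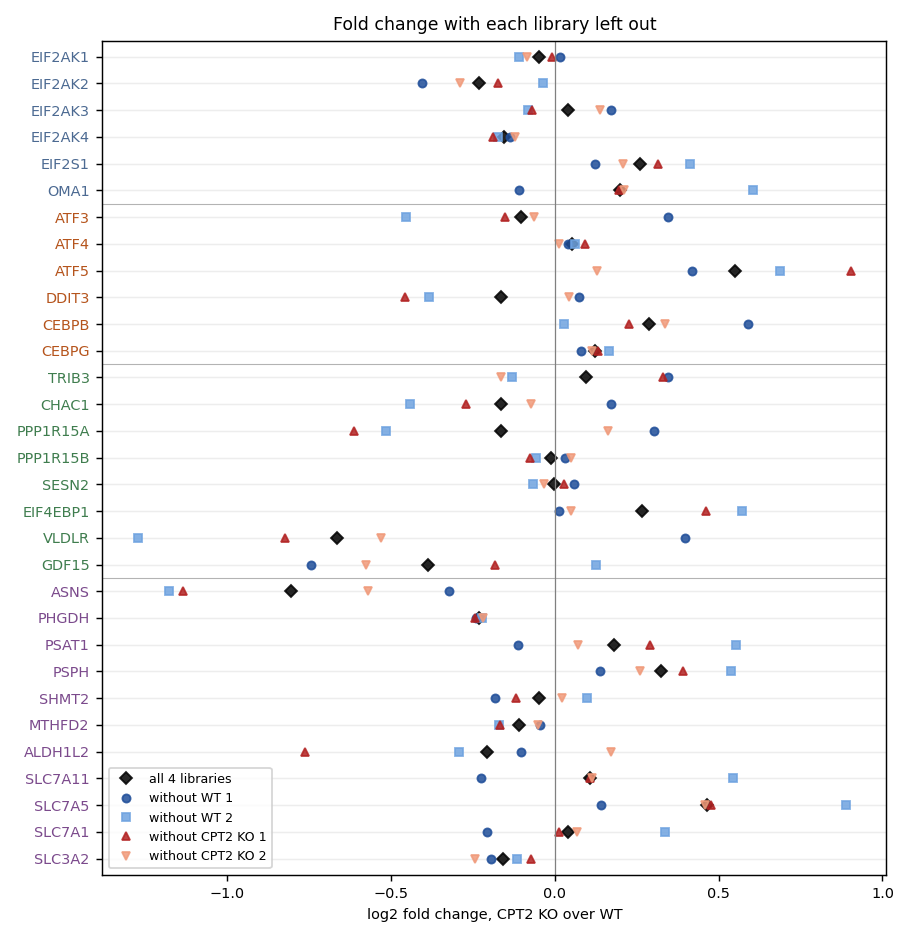
Log2 fold change of the CPT2 KO-labelled libraries over the WT-labelled pair (x axis) for the 31 tested members, with black diamonds for the fit to all 4 libraries and coloured symbols for fits with 1 library left out. PHGDH and ATF4 hardly move, while VLDLR runs from -1.27 without WT 2 to 0.40 without WT 1.

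Other genes of the pathway were also without calls. Over all tested genes edgeR called 0.359% higher and 0.0569% lower, and DESeq2 and limma-voom called 1.11% and 0.353% in either direction. An unadjusted p under 0.05 in edgeR was found for 9.04%. At these shares, 0 calls in a list as short as those below says little about its genes. A list of 13 genes held subunits of eIF2 and eIF2B, regulators of the kinases, and EIF2A and EIF2D, which are neither. Of these 13, edgeR, DESeq2 and limma-voom called 0, 0 had an unadjusted p under 0.05 and the median log2 fold change was 0.097. The highest and lowest values were those of EIF2B1, a subunit of the exchange factor that phosphorylated eIF2 blocks (0.32, edgeR adjusted p = 0.599), and EIF2D (-0.15, 0.798). Of 26 other ATF4 targets, with the pseudogene ATF4P3 counted among them, the same tests called 0, 3 had an unadjusted p under 0.05 and the median was -0.021. DDIT4, an mTORC1 inhibitor also induced by hypoxia, had the lowest value, with 64.6 and 13.0 CPM in WT 1 and WT 2 and 17.8 and 4.82 CPM in CPT2 KO 1 and CPT2 KO 2. Its log2 fold change was -1.75 (SE 1.30, edgeR adjusted p = 0.754). WT 1 was again the high library. Of the genes with a mean of 5 CPM or more, JDP2, a factor related to ATF3, had the highest (0.56, edgeR adjusted p = 0.542), while ATF4P3, at a mean of 1.08 CPM, stood at 0.62 (edgeR adjusted p = 0.726).

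Of 21 further folate and one-carbon genes, the 3 tests called 0, 0 had an unadjusted p under 0.05, and the median log2 fold change was 0.035. MTHFD2L, the close relative of MTHFD2, had the highest value (0.38, edgeR adjusted p = 0.664). Of 20 cytosolic aminoacyl-tRNA synthetase genes, which charge tRNA and are often ATF4 targets, the 3 tests called 0, 1 had an unadjusted p under 0.05 and the median was 0.073. That gene was NARS, for asparagine, at 515 and 616 CPM in the WT-labelled libraries and 386 and 403 CPM in the CPT2 KO-labelled pair (log2 fold change -0.52, SE 0.14, edgeR adjusted p = 0.224). Its groups did not overlap, and WARS, for tryptophan, had the highest value of the list (0.38, edgeR adjusted p = 0.599). Without WT 2, DARS, WARS and FARSB were called among the synthetases and JDP2, KLHL24, VEGFA and LONP1 among the other ATF4 targets, where 3.02% of all tested genes were called higher and 3.84% lower against WT 1 alone. Without WT 1 NARS was called lower (edgeR adjusted p = 0.0194).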

How the data were processed

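RNA-seq was measured in 4 HUES8 libraries, 2 per genotype label. The authors deposited raw read counts per gene symbol with gene lengths, not normalized, per the file headers. The authors used HISAT2 2.1.0, featureCounts 1.6.4 and build hg38 (GRCh38), per the submitters' processing notes. The annotation release, the use of strand and the handling of multiply aligned reads are not stated in the sources used here.

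Genes were filtered with filterByExpr by group, scaled with TMM (trimmed mean of M values) and tested in edgeR 4.0.16 (R 4.3.3) by its quasi-likelihood F-test, robust, group as the only term, with Benjamini-Hochberg adjustment over all tested genes. CPM use the same scaling, and CPM per kb divide by the deposited gene length. SE is the size of the log2 fold change over the square root of F, and 95% intervals use its degrees of freedom. The fits were also run on simulated data with no library set apart, which does not bear on how they behave with WT 1. Alternatives used DESeq2 1.42.0, limma-voom (limma 3.58.1) and those in the closing section. Left-out-library fits kept the tested genes, and the lone library of a group was assumed to vary like the others.

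The members and lists were chosen with earlier results of these data known. Per-library values are given for members called with a library left out, the largest change each way per role, and ATF4, DDIT3, ASNS, PHGDH, PSAT1 and EIF2S1; other per-library values were chosen after being seen. Genes outside the members are named for the largest change each way per list at 5 CPM or more, and those called with a library left out, the overlapping genes and the markers were named after their values were seen. Positions are from GENCODE 29 and promoters from RefSeq (GRCh38.p14), which held 26 of 33 members. The lowest value of 1 list is not reported here.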

Additional observations from a re-analysis of the deposited data

How the results depend on the processing

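The replicate numbers were not taken as pairs, since the labels do not say whether same-numbered libraries were handled together. The correlation of their deviations was 0.17 over 17564 genes, and a shared batch was not tested. With the replicate block, 233 genes were called higher and 140 lower, against 63 and 10 without it, and 0 members. DESeq2 called 149 and 46 genes and no filter on low counts 101 and 23, with 0 members in both; the cause was not tested. Left out in turn, the libraries gave 31 to 531 genes higher and 2 to 674 lower, and 0 to 2 members higher and 0 to 1 lower. The median over members then ranged from -0.069 to 0.044, that of the kinases, eIF2 alpha and OMA1 from -0.058 to 0.027, of the transcription factors from 0.046 to 0.21 of the feedback genes from -0.13 to 0.12 and of the amino acid genes from -0.18 to 0.100. With a library left out, 17 members crossed 0: ALDH1L2 (-0.76 to 0.17), ATF3 (-0.45 to 0.35), CHAC1 (-0.44 to 0.17), DDIT3 (-0.46 to 0.074), EIF2AK1 (-0.11 to 0.016), EIF2AK3 (-0.081 to 0.17), GDF15 (-0.74 to 0.13), OMA1 (-0.11 to 0.60), PPP1R15A (-0.61 to 0.30), PPP1R15B (-0.076 to 0.050), PSAT1 (-0.11 to 0.55), SESN2 (-0.065 to 0.060), SHMT2 (-0.18 to 0.10), SLC7A1 (-0.21 to 0.34), SLC7A11 (-0.23 to 0.55), TRIB3 (-0.16 to 0.35) and VLDLR (-1.27 to 0.40). SESN2 was also at 0.000214 with the stricter filter, and no other member changed sign under scaling, filter, DESeq2, limma-voom, the legacy estimate, the block or without mitochondrially encoded genes. Under these, 0 members were called. Depth limits DDIT3, GDF15, NUPR1 and FGF21, at 47 counts or fewer.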

Other observations

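Chaperones of the endoplasmic reticulum, the compartment watched by EIF2AK3, were measured beside the members. Of 17 genes of its unfolded protein response, edgeR, DESeq2 and limma-voom called 0, 4 had an unadjusted p under 0.05 (XBP1, ATF6, HSPA5 and DNAJB11) against 9.04% of all tested genes, and the median log2 fold change was 0.26, or 0.18 without WT 1 and 0.41 without WT 2. HSPA5 (BiP, the main chaperone) stood at 453 and 696 CPM in WT 1 and WT 2 and at 841 and 891 CPM in CPT2 KO 1 and CPT2 KO 2 (log2 fold change 0.59, edgeR adjusted p = 0.358). XBP1, a factor of this response, was at 83.7 and 96.9 CPM against 117 and 144 CPM (log2 fold change 0.53, edgeR adjusted p = 0.278), and ATF6, another, at 10.6 and 11.8 CPM against 18.3 and 17.3 CPM (log2 fold change 0.67, edgeR adjusted p = 0.306). The groups did not overlap in these 3 genes, which were picked by their p-values, so this cannot be set beside a share over all genes. Over the whole list, HSP90B1, DNAJB9, DNAJB11, SDF2L1, PDIA4 and SYVN1 were also higher without overlap, and SEL1L was lower. In the other genes of the list the groups overlapped. Of all tested genes 21.1% were higher without overlap. SEL1L, of the degradation arm, had the lowest value of the list (-0.20, edgeR adjusted p = 0.686). Without WT 2, where WT 1 was the only WT-labelled library and 3.02% of all tested genes were called higher, HSPA5, XBP1, DNAJB11, CRELD2 and MANF were called higher.

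Of 12 genes of the mitochondrial unfolded protein response, 0 were called by the 3 tests. An unadjusted p under 0.05 was found for 0, against 9.04% of all tested genes, and the median log2 fold change was 0.065. TIMM17A, an import subunit, had the highest value (0.45, edgeR adjusted p = 0.561) and the protease LONP1 the lowest (-0.28, edgeR adjusted p = 0.686), with 183 CPM in WT 1 against 118, 119 and 129 CPM in the other libraries. LONP1 is also among the other ATF4 targets above. Without WT 2, which left WT 1 as the only WT-labelled library, the median of the list was 0.046, and without WT 1 it was 0.077.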
